A study of Mus musculus with 3 samples.

Results

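Collagen chain genes were followed over healing in mouse skin wounds. They were taken as every gene whose symbol reads Col, a number, a and a number, which gave 44 of the 32285 genes measured. All 44 are protein coding in the GENCODE annotation of the mouse genome build GRCm38. Wounded skin of C57BL/6J mice was measured on Day 3, Day 7 and Day 14 after injury by Visium, in which a tissue section lies on spots that carry positional barcodes and captured transcripts are counted by unique molecular identifier (UMI). According to the study's methods, full-thickness excisional wounds were made in the dorsal skin of adult males with a biopsy punch, and the harvested wound tissue was frozen and sectioned. Each day had 1 section (n = 1), so no test between days was possible, and the intervals given here are 95% intervals that cover counting error only. Neither the animal nor the slide can be told apart from the day. Sets of 3 values without named days are in the order Day 3, Day 7, Day 14.

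Collagens are trimers of alpha chains wound into a triple helix, and each gene encodes 1 chain. Fibrillar collagens (types I, III and V in skin) build the banded fibrils of the dermis, and FACIT collagens sit on the surface of those fibrils. Of the network collagens (types IV, VIII and X here), type IV forms the sheets of basement membranes. Type VI forms beaded filaments, and type VII forms the anchoring fibrils below the epidermis. The transmembrane type XVII is held in the hemidesmosomes of basal keratinocytes, and the multiplexins XV and XVIII are basement membrane proteoglycans. Wound granulation tissue is known for collagen production by fibroblasts, with type III prominent early.

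The 3 sections held 549 to 697 spots marked as under tissue and 1772259 to 4611723 UMIs in them, with Day 3 the shallowest. The marked spots cover part of the tissue on each slide, so values under tissue are those of the marked part. Every slide carries the same set of spot barcodes, so a barcode names a position only. A spot can hold several cells, and more cells of a type cannot be told apart from more RNA per cell. Collagens took 5.19%, 7.87% and 3.91% of the UMIs under tissue, and *Col1a1*, *Col1a2* and *Col3a1* made up 91.3%, 80.7% and 87.3% of those collagen UMIs. A UMI was seen for 35 of the 44 genes on Day 3, 43 on Day 7 and 42 on Day 14. Summed over the days, 31 genes reached 50 UMIs and are described with values per day. UMI counts given for a gene are those under tissue unless spots outside are named.

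The cell make-up differed between the sections. The summed level of a list of 10 dermal fibroblast markers (*Dcn*, *Lum* and others) was 4053, 5578 and 3093 CPM (UMIs per 1000000 UMIs) on Day 3, Day 7 and Day 14, and that of 10 wound fibroblast markers (*Postn*, *Tnc*, *Acta2* and others) was 2040, 8541 and 1887 CPM. All 10 markers of both lists had UMIs on every day. Basal epidermis markers were at 5167, 2962 and 5952 CPM, endothelial markers at 721, 716 and 213 CPM, and skeletal muscle markers at 43386, 57471 and 66337 CPM. Hair follicle markers were at 8.46 CPM on Day 3 and 7.43 CPM on Day 7, with all 9 markers found in the data under 10 CPM, and at 5687 CPM on Day 14. The fibroblast and wound fibroblast lists were highest on Day 7, as the summed collagens were, and the other lists named here had other courses. Pericyte markers, at 538, 765 and 419 CPM, were also highest on Day 7. The part of any list in the ratios between days was not tested.

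Start regions are shown for a pair of chains that were both highest on Day 7, *Col3a1* and *Col5a1*. They are also shown for *Col7a1* and *Col17a1*, known from the dermal-epidermal border, whose pooled levels went apart on that day. Capitals mark matches, on either strand, to the TATA box letters TATAAA, to the CAAT box letters CCAAT or to the GC box letters GGGCGG. Each is the part of the 150 bases before the RefSeq gene start (GRCm38.p6) that lies in no annotated exon. For *Col17a1* the bases next to the RefSeq start lie in an annotated exon and are left out. The stretches are written 5′ to 3′ on the strand of the gene. They are 150 bases of chr1:45311388-45311537 (plus strand) for *Col3a1*, 150 of chr2:27886275-27886424 (plus) for *Col5a1*, 150 of chr9:108953436-108953585 (plus) for *Col7a1* and 98 of chr19:47692095-47692192 (minus) for *Col17a1*.
*Col3a1*: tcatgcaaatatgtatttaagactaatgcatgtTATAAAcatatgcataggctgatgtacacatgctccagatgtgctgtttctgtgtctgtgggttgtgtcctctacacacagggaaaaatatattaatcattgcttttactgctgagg
*Col5a1*: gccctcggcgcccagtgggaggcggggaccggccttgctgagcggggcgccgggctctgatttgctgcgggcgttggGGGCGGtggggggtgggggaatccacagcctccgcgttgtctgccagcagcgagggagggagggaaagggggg
*Col7a1*: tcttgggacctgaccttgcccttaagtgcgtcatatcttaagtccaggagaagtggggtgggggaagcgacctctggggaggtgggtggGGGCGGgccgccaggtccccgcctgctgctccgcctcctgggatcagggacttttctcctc
*Col17a1*: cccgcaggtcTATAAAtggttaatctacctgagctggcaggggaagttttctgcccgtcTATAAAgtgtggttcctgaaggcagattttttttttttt

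TATAAA lay 117 bases before the RefSeq start of *Col3a1* and 140 and 91 bases before that of *Col17a1*. GGGCGG lay 73 bases before the start of *Col5a1* and 61 bases before that of *Col7a1*. RefSeq start regions of 300 bases were found for 35 of the 44 genes, as 38 regions. TATAAA was in 13.2% of these and in 13.6% of all 32851 start regions, CCAAT in 34.2% against 37.4%, and GGGCGG in 60.5% against 35.7%. The motifs do not overlap each other in letters, and a match describes the sequence only.

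Several chains of 1 trimer or 1 class are neighbours in the genome. *Col4a1* (chromosome 8, 11198423 to 11312826, minus strand) and *Col4a2* (11312805 to 11449287, plus strand) lie head to head with overlapping starts. *Col3a1* (chromosome 1, 45311538 to 45349706, plus strand) and *Col5a2* (45374321 to 45503282, minus strand) lie tail to tail, 24614 bases apart. *Col4a4* and *Col4a3* lie 71 bases apart head to head on chromosome 1, and *Col4a6* and *Col4a5* 1308 bases apart head to head on chromosome X. By contrast, *Col1a1* (chromosome 11, 94936224 to 94953042) and *Col1a2* (chromosome 6, 4504814 to 4541544) lie on different chromosomes.

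The question across days was how the levels of each collagen class moved over healing. On Day 7 most collagen chains stood above their Day 3 level, and by how much differed between classes. Of the 27 collagen genes with at least 50 UMIs over both sections, 17 were at least 2-fold higher on Day 7 and 0 were at least 2-fold lower, against 8.04% higher and 6.49% lower of all 10541 genes. With averaged spot CPM the counts were 19 and 0, against 18.7% and 8.12% of all genes. The median log2 ratio of Day 7 over Day 3 was 1.26 for the collagens and 0.04 for all genes. The 17 were spread over 7 classes, namely 6 of 9 fibrillar, 1 of 5 network, 3 of 3 FACIT, 1 of 2 transmembrane, 4 of 5 beaded filament, 1 of 1 anchoring fibril and 1 of 2 multiplexin genes. *Col18a1* was the nearest inside the 2-fold limit, at a log2 ratio of 1.08, and *Col4a2* the nearest outside, at 0.92.

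From Day 7 to Day 14 most of the same classes were lower. Of 29 collagen genes counted, 16 were at least 2-fold lower on Day 14 than on Day 7, against 7.34% of all genes, and 2 (*Col11a2* and *Col17a1*) were at least 2-fold higher, against 10.9%. The median log2 ratio was -1.21 for the collagens and 0.13 for all genes. Between Day 14 and Day 3, 4 of 25 collagen genes were at least 2-fold higher (*Col11a1*, *Col11a2*, *Col8a1* and *Col7a1*), against 14.4% of all genes, and 1 (*Col5a2*) was at least 2-fold lower, against 6.83%. With averaged spot CPM they were 8 and 0, against 24.3% and 8.42% of all genes. By pooled CPM under tissue the share of collagens higher on Day 14 than on Day 3 was near that of all genes, while over every spot of the slide it was 9 of 30 against 11.7% of all genes, and with a minimum of 10 UMIs 10 of 35 against 17.3%. For pooled CPM under tissue, the medians were 0.34 and 0.18.

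Summed by class, the fibrillar chains stood at 48719, 67763 and 35216 CPM. The FACIT class stood at 418, 2038 and 764 CPM, the beaded filament class at 1513, 6581 and 1781 CPM, and the anchoring fibril gene *Col7a1* at 45.1, 531 and 142 CPM. All 4 were highest on Day 7, but the fold differed: 1.39-fold [1.38, 1.40] for fibrillar, 4.87-fold [4.52, 5.26] for FACIT, 4.35-fold [4.18, 4.53] for beaded filament and 11.8-fold [9.41, 14.9] for anchoring fibril over Day 3. The network class stood at 547, 979 and 433 CPM and the multiplexins at 300, 502 and 199 CPM. The transmembrane class had the opposite course, at 335, 262 and 607 CPM, with a log2 ratio of Day 7 over Day 3 of -0.36 by pooled CPM that became 0.27 when spot CPM were averaged instead. The Day 14 over Day 3 ratio of the fibrillar class, -0.47 by pooled CPM, also changed sign, to 0.06, with averaged spot CPM.

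**Figure D1:**
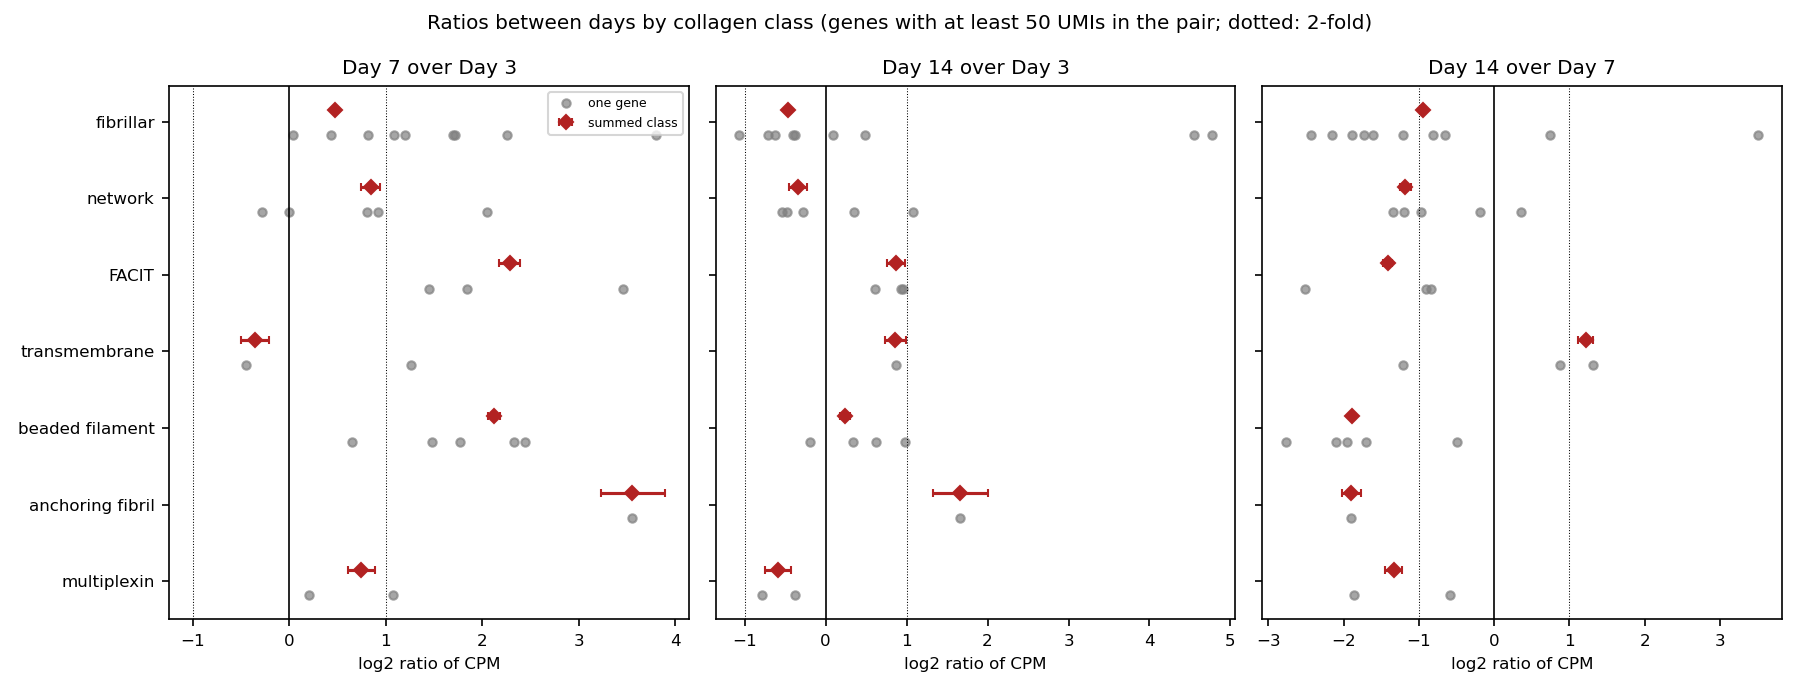
Log2 ratio of CPM between days (x axis) by collagen class (y axis), with the summed class as a red diamond with its 95% counting interval and each gene with at least 50 UMIs in the pair as a grey point. The FACIT, beaded filament and anchoring fibril classes lie right of the dotted 2-fold line for Day 7 over Day 3, and of the 7 summed classes only the transmembrane class lies right of 0 for Day 14 over Day 7.

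Among the fibrillar chains, type I is the main collagen of skin. *Col1a1*, which encodes its alpha 1 chain, was at 22693, 30561 and 17471 CPM. It was 1.35-fold higher on Day 7 than on Day 3 by pooled CPM, though its log2 ratio per UMI of the dermal fibroblast list was -0.03. *Col1a2*, the alpha 2 chain, was at 18681, 19126 and 12145 CPM, with a log2 ratio of 0.03 [0.02, 0.05] for Day 7 over Day 3 that was -0.43 per fibroblast-list UMI. Both were lower on Day 14 than on Day 7, by log2 ratios of -0.81 and -0.66 that became 0.04 and 0.20 per fibroblast-list UMI. *Col3a1*, the single chain of type III, was at 6000, 13815 and 4544 CPM. It was 2.30-fold [2.26, 2.35] higher on Day 7 than on Day 3 and 3.04-fold lower on Day 14 than on Day 7.

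Type V collagen initiates fibrils and limits their width. *Col5a1* was at 557, 2656 and 595 CPM, and *Col5a2* at 655, 1156 and 313 CPM. *Col5a3*, a less common type V chain, was at 111, 365 and 67.7 CPM. The Day 7 to Day 3 ratio was larger for *Col5a1* (log2 ratio 2.25 [2.16, 2.35]) than for *Col5a2* (0.82 [0.73, 0.91]), with intervals that do not overlap. On Day 14 *Col5a1* was back near its Day 3 level (0.09 [-0.01, 0.20]), whereas *Col5a2* was below it (-1.06 [-1.18, -0.95]).

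Of the low fibrillar chains, those of type XI had another course. *Col11a1*, an alpha chain of the type XI collagen of cartilage that also joins type V chains, had 3, 105 and 183 UMIs (1.69, 23.6 and 39.7 CPM). *Col11a2* had 1, 6 and 71 UMIs (0.56, 1.35 and 15.4 CPM), a log2 ratio of 3.51 [2.32, 5.0] for Day 14 over Day 7. Both were therefore highest on Day 14, when the type V chains had fallen back. *Col27a1* was at 14.7, 47.5 and 20.6 CPM and *Col24a1* at 5.08, 10.8 and 3.25 CPM, each highest on Day 7 like the major fibrillar chains. *Col2a1*, the cartilage fibril collagen, had 11 UMIs under tissue over the 3 sections.

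The summed network chains were 1.79-fold [1.67, 1.92] higher on Day 7 than on Day 3. *Col4a1* and *Col4a2*, which form the type IV trimer found in almost all basement membranes, were at 317, 552 and 218 CPM and at 182, 343 and 150 CPM. Their log2 ratios were 0.80 [0.67, 0.94] and 0.92 [0.74, 1.09] from Day 3 to Day 7, and -1.34 [-1.45, -1.24] and -1.19 [-1.33, -1.06] from Day 7 to Day 14. The chains of the other type IV trimers were low, and their Day 7 over Day 3 intervals include 0. *Col4a5* was at 9.03, 9.0 and 11.5 CPM, *Col4a4* at 4.51, 4.95 and 5.85 CPM and *Col4a6*, which joins *Col4a5* chains in the epidermal basement membrane, at 2.82, 2.48 and 7.59 CPM, while *Col4a3* had 11 UMIs in all. Of the type VIII chains, known from vessel walls and cornea, *Col8a1* was at 12.4, 51.3 and 26.2 CPM (log2 ratio 2.05 [1.41, 2.75] for Day 7 over Day 3) and *Col8a2* at 18.1, 14.9 and 13 CPM with intervals of all ratios that include 0. *Col10a1*, the collagen of hypertrophic cartilage, had 2 UMIs.

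The 3 FACIT chains counted were all at least 2-fold higher on Day 7 than on Day 3. *Col12a1*, which encodes a fibril-associated collagen of dense connective tissue, was at 87.5, 963 and 169 CPM, that is 11-fold [9.38, 13] higher on Day 7 than on Day 3. *Col14a1*, a related collagen of the dermis, was at 127, 347 and 195 CPM, and *Col16a1*, found near fibrils and at the dermal-epidermal border, at 201, 719 and 384 CPM. On Day 14 all 3 still lay above Day 3, with log2 ratios of 0.95 [0.70, 1.21], 0.62 [0.40, 0.83] and 0.93 [0.77, 1.10]. The other FACIT chains were sparse: *Col20a1* had 43 UMIs in all, *Col22a1* 45, *Col9a2* and *Col9a3* 13 each, *Col9a1* 3 and *Col19a1* 0 of 1772259, 4442962 and 4611723 UMIs, which allows up to 1.69, 0.675 and 0.651 CPM. Of the 45 *Col22a1* UMIs, 41 were on Day 14.

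Among the transmembrane chains, *Col17a1*, the hemidesmosome collagen of basal keratinocytes, was at 324, 238 and 590 CPM. It held 575 of the 593, 1058 of the 1162 and 2723 of the 2799 UMIs of its class. Its log2 ratio was -0.45 [-0.59, -0.30] between Day 3 and Day 7 and 1.31 [1.21, 1.41] between Day 7 and Day 14, and the basal epidermis markers, at 5167, 2962 and 5952 CPM, were also lowest on Day 7 and highest on Day 14. With averaged spot CPM the Day 7 to Day 3 ratio of *Col17a1* turned to 0.21. *Col23a1*, a little-studied surface collagen, was at 7.34, 17.6 and 7.59 CPM and *Col13a1*, found at cell adhesion sites, at 2.82, 4.50 and 8.24 CPM. *Col25a1* had 9 UMIs.

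Of the 5 beaded filament chains counted, 4 were at least 2-fold higher on Day 7 than on Day 3. *Col6a1*, *Col6a2* and *Col6a3*, the 3 chains of the common type VI trimer, were at 492, 2472 and 758 CPM, at 684, 2329 and 599 CPM, and at 321, 1744 and 405 CPM. Day 7 over Day 3 ratios were 2.33 [2.23, 2.43], 1.77 [1.68, 1.85] and 2.44 [2.32, 2.57] on the log2 scale, so the ratio of *Col6a2* was below those of its partners. Of the chains that can replace the alpha 3 chain, *Col6a6* was at 7.90, 22.1 and 15.6 CPM, *Col6a5* at 8.46, 13.3 and 1.95 CPM and *Col6a4* had 13 UMIs. *Col7a1*, the single chain of anchoring fibrils, was 3.16-fold [2.50, 4.03] higher on Day 14 than on Day 3 after its Day 7 maximum.

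Of the multiplexins, *Col18a1*, whose C-terminal fragment is endostatin, was at 164, 345 and 94.5 CPM, and *Col15a1*, of muscle and capillary basement membranes, at 136, 157 and 105 CPM. Only *Col18a1* passed 2-fold, with log2 ratios of 1.08 [0.89, 1.26] from Day 3 to Day 7 and -1.87 [-2.02, -1.71] from Day 7 to Day 14. *Col26a1* had 0, 36 and 10 UMIs and *Col28a1* 1, 15 and 25 UMIs. *Col26a1* was thus seen only from Day 7 on, where a count of 0 on Day 3 allows up to 1.69 CPM.

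**Figure D2:**
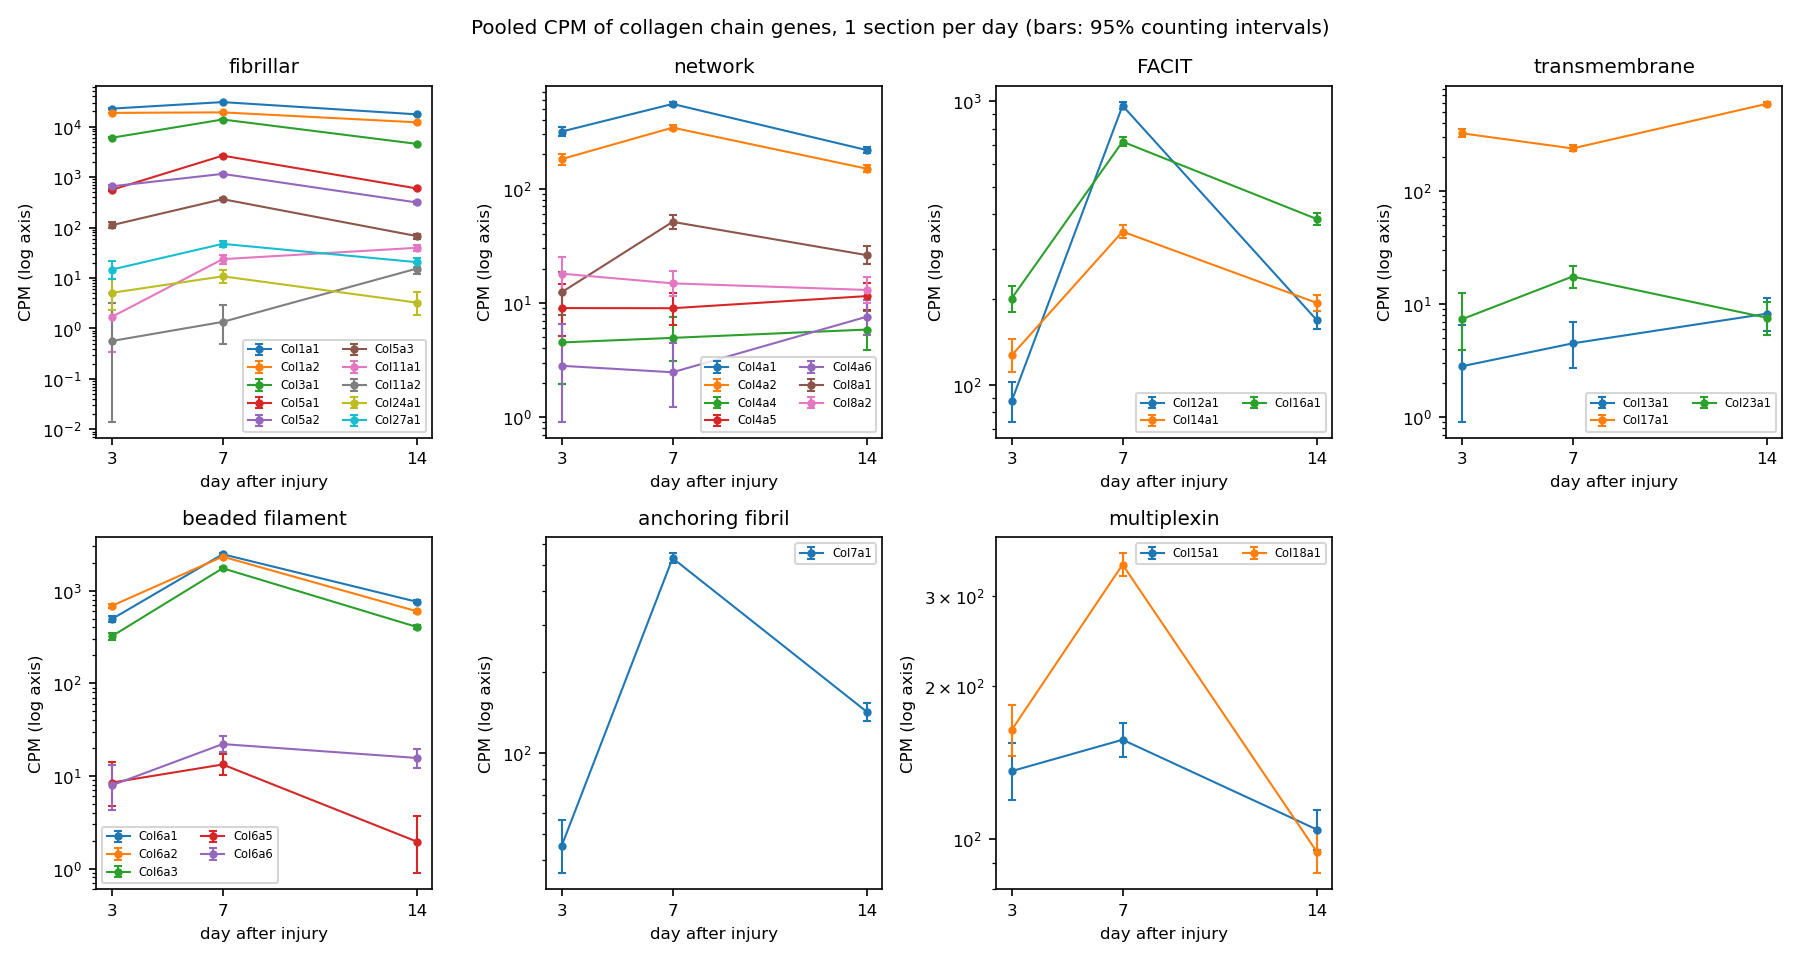
Pooled CPM (log axis) of the 31 collagen genes that reached 50 UMIs in all, by day after injury and class, with 1 section per day and bars for 95% counting intervals. Most lines peak on Day 7, *Col17a1* has its lowest point there by pooled CPM (238 CPM), though not with averaged spot CPM, and *Col11a1* and *Col11a2* are highest on Day 14.

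Ratios of UMIs between chains within a section do not depend on the total of the section, although a 3′ UMI count is not divided by length. *Col1a1* had 1.21 [1.2, 1.23] UMIs per *Col1a2* UMI on Day 3, 1.60 [1.58, 1.61] on Day 7 and 1.44 [1.42, 1.45] on Day 14. *Col3a1* had 0.264 [0.259, 0.270], 0.452 [0.448, 0.456] and 0.260 [0.256, 0.264] UMIs per *Col1a1* UMI, so the type III to type I ratio on Day 14 was back at its Day 3 value to within counting error. *Col5a1* per *Col5a2* was 0.850 [0.780, 0.926], 2.30 [2.22, 2.37] and 1.90 [1.78, 2.02], which did not return to the Day 3 value.

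The type IV pair was steadier, with 1.74 [1.52, 2.0], 1.61 [1.51, 1.72] and 1.45 [1.32, 1.60] *Col4a1* UMIs per *Col4a2* UMI and overlapping intervals between neighbouring days. *Col6a1* per *Col6a2* was 0.719 [0.659, 0.786], 1.06 [1.03, 1.09] and 1.27 [1.2, 1.33]. *Col12a1* per *Col14a1* was 0.689 [0.558, 0.849], 2.78 [2.62, 2.95] and 0.870 [0.789, 0.958]. Pooled over all spots under tissue, *Col17a1* per *Col7a1* was 7.19 [5.68, 9.20], 0.448 [0.417, 0.482] and 4.14 [3.80, 4.52]. In these pooled counts *Col7a1* outnumbered *Col17a1* on Day 7 alone, and the ratio at the dermal-epidermal border itself was not measured. *Col15a1* per *Col18a1* was 0.831 [0.698, 0.989], 0.454 [0.415, 0.497] and 1.11 [0.969, 1.26].

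**Figure D3:**
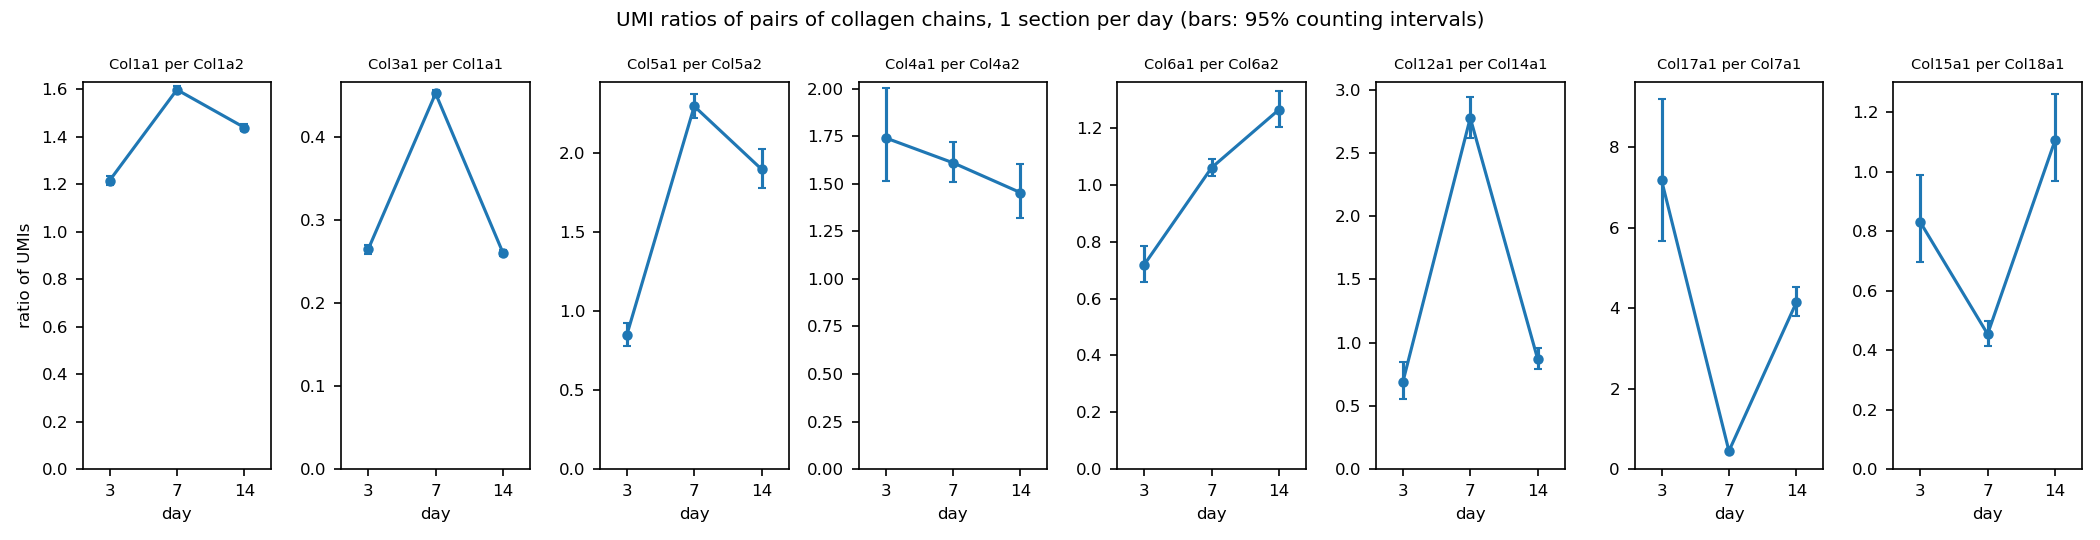
UMIs of 1 chain per UMI of another (y axis, from 0) by day, 1 section per day, with bars for 95% counting intervals. *Col3a1* per *Col1a1* returns to its Day 3 value on Day 14, *Col5a1* per *Col5a2* does not, and *Col17a1* per *Col7a1* falls below 1 on Day 7.

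Within sections the collagen share of a spot varied widely. Among spots with at least 500 UMIs, the fibrillar share ran from 0% to 24.2% of a spot's UMIs on Day 3 with a median of 2.82%, from 0.523% to 15.3% with a median of 5.85% on Day 7, and from 0.201% to 12% with a median of 3.14% on Day 14. The highest spots were thus on Day 3 and the highest median on Day 7. *Col12a1* had a UMI in 12.7% of 520 spots on Day 3, 87.2% of 539 on Day 7 and 51.7% of 689 on Day 14, and *Col7a1* in 9.23%, 80.0% and 48.5%. These shares rise with depth, and the median spot held 1513, 6687 and 4827 UMIs on Day 3, Day 7 and Day 14.

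**Figure D4:**
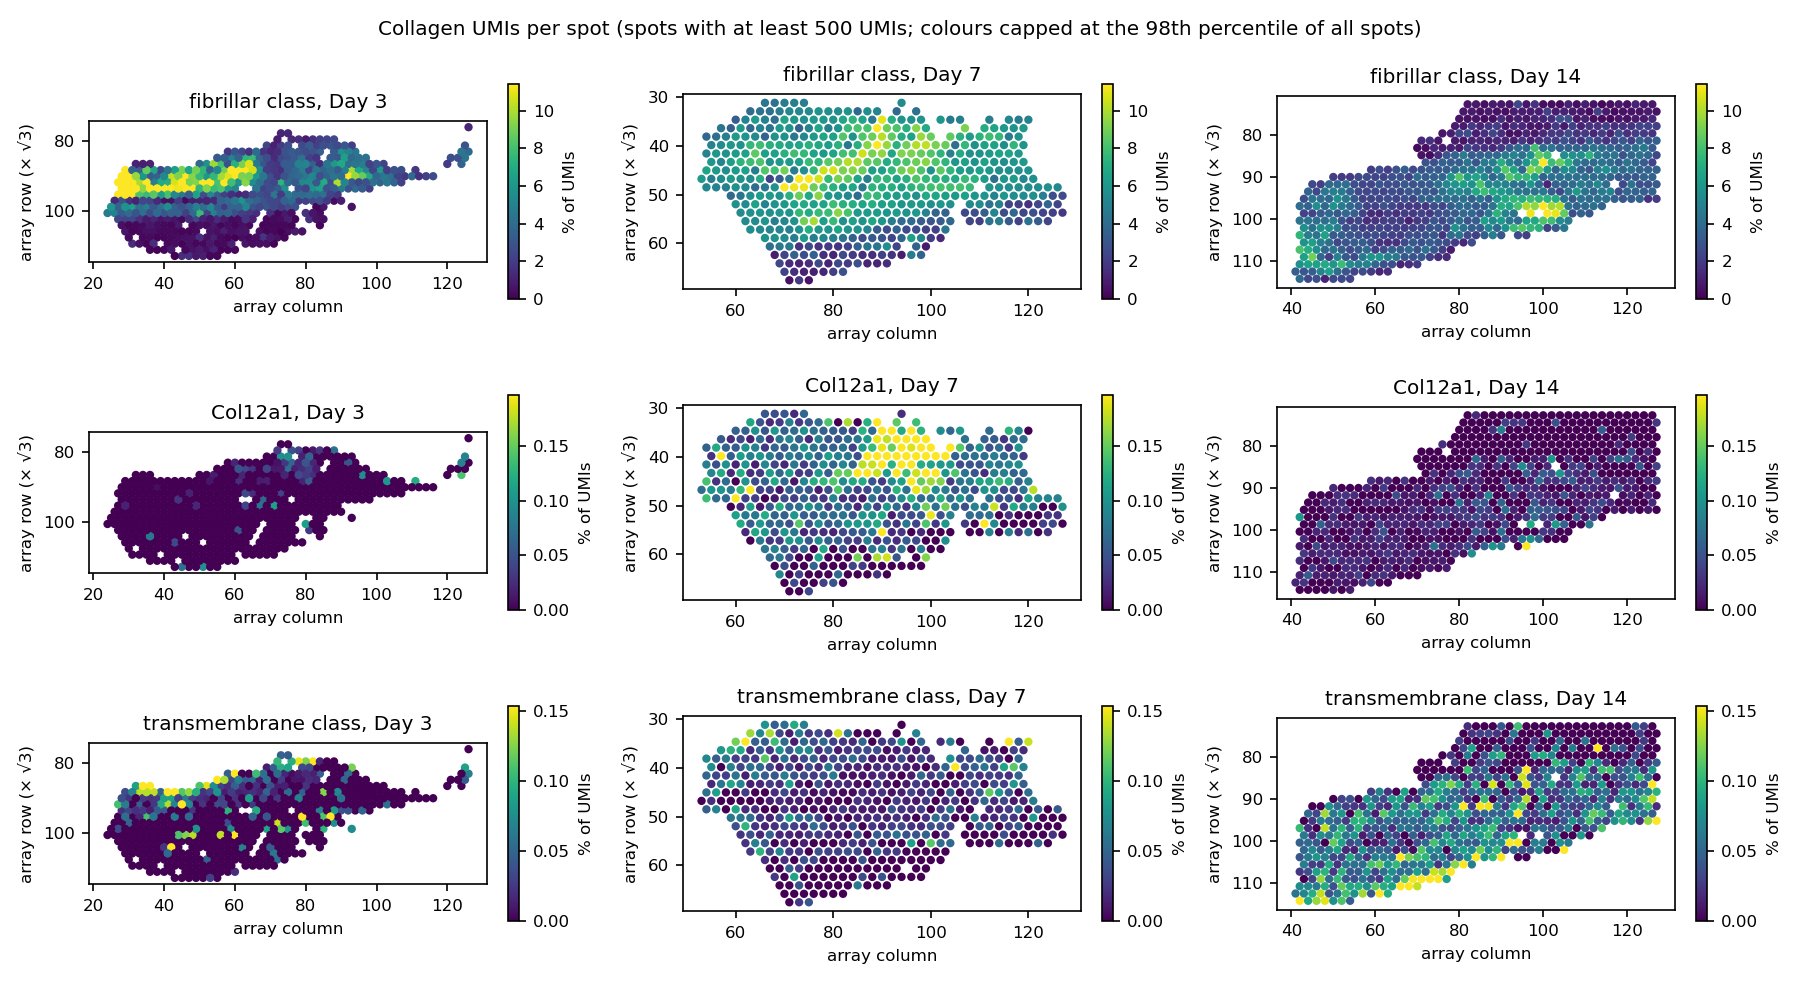
Share of each spot's UMIs (colour scale capped at the top) in the fibrillar class, *Col12a1* and the transmembrane class over the 3 sections, in array positions, for the 520, 539 and 689 spots with at least 500 UMIs. High fibrillar shares form a band on Day 3, *Col12a1* is concentrated in 1 patch on Day 7, and the transmembrane class lies along part of the section's edge on Day 3.

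To see where in a section each class was found, the tenth of spots with the highest share of a marker list was compared with the other spots. Such a set is a range of spots and not a cell type, and it held 52, 54 and 69 spots on Day 3, Day 7 and Day 14. In the spots highest in the dermal fibroblast list, the fibrillar class was at 113260 CPM against 38485 CPM elsewhere on Day 3, 91544 against 63255 CPM on Day 7 and 74498 against 31413 CPM on Day 14. In the spots highest in the wound fibroblast list it was lower than elsewhere on Day 3 (log2 ratio -0.37 [-0.40, -0.34]) and higher on Day 7 (0.53 [0.52, 0.54]) and Day 14 (1.17 [1.16, 1.19]). In the spots highest in muscle markers it was lower on all 3 days, at log2 ratios of -3.26, -1.84 and -2.18. Depth moved with some of these sets: on Day 7 the spots highest in the wound fibroblast list had a median of 17415 UMIs against 6037 elsewhere, and its part was not tested. The sets were not separate either. Of the spots highest in the wound fibroblast list, 4, 18 and 37 were also among those highest in the dermal fibroblast list. The part of this overlap in the ratios was not tested.

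Not every chain followed the fibrillar sum on Day 3. In the spots highest in the wound fibroblast list, *Col12a1* was at 306 CPM against 51.6 CPM elsewhere (log2 ratio 2.57 [2.09, 3.05]), and *Col5a3* (1.85 [1.41, 2.28]), *Col5a1* (1.12 [0.90, 1.33]), *Col6a3* (0.81 [0.51, 1.10]) and *Col6a1* (0.79 [0.55, 1.02]) were also higher there. *Col1a1* (-0.39 [-0.43, -0.34]) and *Col1a2* (-0.66 [-0.72, -0.61]) were lower there, and *Col3a1* was close to level at 0.08 [0.00, 0.16]. On Day 7 and Day 14 *Col1a1*, *Col1a2*, *Col3a1*, *Col5a1* and *Col12a1* were all higher in such spots. *Col12a1* stood at 1862 against 712 CPM on Day 7 and 385 against 146 CPM on Day 14. *Col8a1* on Day 14 was at 112 against 17 CPM (log2 ratio 2.72 [2.17, 3.26]).

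*Col17a1* was higher in the spots highest in basal epidermis markers on each day, at 1015 against 151 CPM on Day 3, 626 against 198 CPM on Day 7 and 1116 against 471 CPM on Day 14. *Col7a1* shared that place on Day 3 only, at 139 against 21.4 CPM (log2 ratio 2.69 [2.01, 3.40]). On Day 7 and Day 14 its log2 ratio in those spots was 0.15 [-0.04, 0.35] and 0.15 [-0.13, 0.43], while in the spots highest in the wound fibroblast list it was 0.94 [0.81, 1.06] and 1.26 [0.98, 1.54]. On Day 3 the spots highest in basal epidermis markers had a median of 7356 UMIs against 1821 elsewhere.

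The network class and *Col18a1* went with endothelial markers early. In the spots highest in the endothelial list the network class was at 1217 against 479 CPM on Day 3, 1650 against 902 CPM on Day 7 and 486 against 429 CPM on Day 14. *Col18a1* was at 400 against 140 CPM on Day 3, 800 against 293 CPM on Day 7 and 89.9 against 94.9 CPM on Day 14. The log2 ratios of *Col18a1* were thus 1.51 [1.10, 1.91], 1.45 [1.28, 1.62] and -0.08 [-0.72, 0.50]. On Day 14 the endothelial list itself was at 213 CPM, with 2 of its 10 markers under 10 CPM. The median share of UMIs in that list was 0.253%, 0.159% and 0.0808% inside the set of spots and 0.0256%, 0.0571% and 0.0120% outside it. In the spots highest in pericyte markers the network class had log2 ratios of 0.64 [0.35, 0.92], 0.91 [0.79, 1.04] and 0.17 [-0.09, 0.41].

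**Figure D5:**
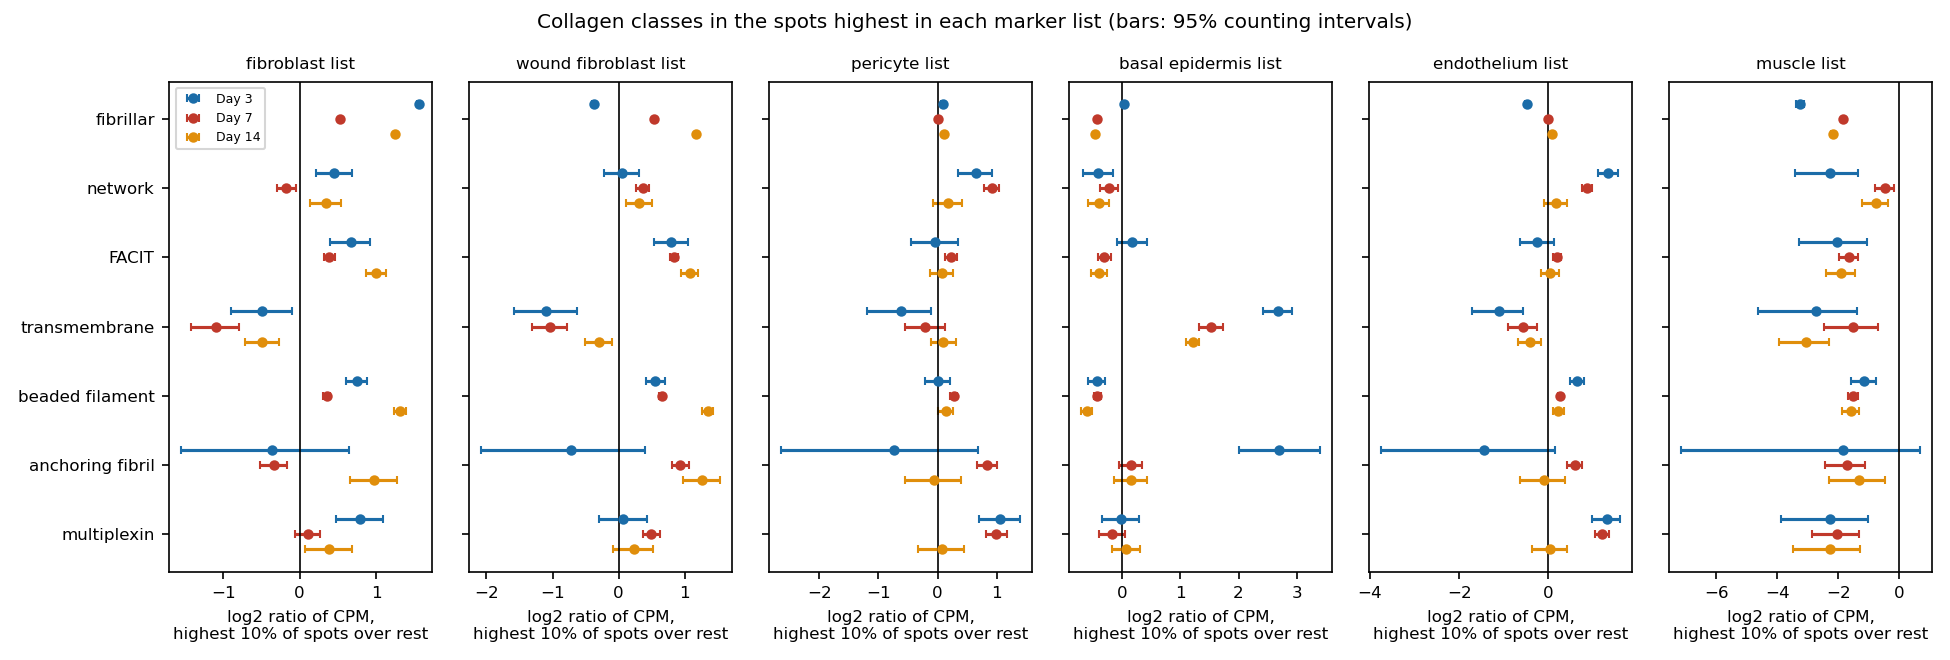
Log2 ratio of class CPM (x axis) in the tenth of spots highest in each of 6 marker lists over the other spots, by class (y axis) and day (colour), with 95% counting intervals. The fibrillar class lies left of 0 on Day 3 and right of 0 on Day 7 and Day 14 for the wound fibroblast list, and the transmembrane class lies right of 0 on all days for the basal epidermis list.

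Correlations across spots describe which chains shared spots, and spots of 1 section share a library and depth. *Col1a1* and *Col1a2* had Pearson's r of 0.69, 0.79 and 0.85 over 664, 549 and 697 spots on Day 3, Day 7 and Day 14, and of 0.80, 0.77 and 0.77 after every spot was thinned to 1000 UMIs. *Col1a1* and *Col3a1* had 0.64, 0.74 and 0.78, and 0.73, 0.69 and 0.56 after thinning. For the lower chains r was much lower after thinning: *Col4a1* and *Col4a2* went from 0.28, 0.21 and 0.13 to 0.13, 0.08 and 0.01, and *Col6a1* and *Col6a2* from 0.37, 0.53 and 0.43 to 0.09, 0.18 and 0.14. Thinning leaves few UMIs of such chains per spot, so it cannot tell shared depth from sparse counts. Over the 6 pairs that share a trimer the median r was 0.35, 0.42 and 0.38, and over pairs of different classes (89, 159 and 130 pairs) it was 0.27, 0.24 and 0.20. Among spots with at least 500 UMIs, not thinned, these medians were 0.27, 0.49 and 0.39 against 0.21, 0.22 and 0.20. After thinning the medians were 0.11, 0.16 and 0.12 against 0.07, 0.05 and 0.06, levels at which a weak correlation of sparse counts is no finding. Pairs of 1 class that share no trimer (10, 25 and 17 pairs) had a median r of 0.52, 0.31 and 0.33. After thinning it was 0.37, 0.09 and 0.10. On Day 3 these pairs were thus above the trimer pairs, before and after thinning.

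Of 450 genes outside the collagens with at least 500 UMIs in each section, the 5 whose spot pattern was most like the summed fibrillar chains were *Sparc* (mean r 0.72), *Serpinh1* (0.58), *Actb* (0.58), *Apoe* (0.56) and *Lum* (0.56). *Sparc* encodes a collagen-binding matrix protein, *Serpinh1* the collagen chaperone HSP47 and *Lum*, itself a dermal fibroblast marker here, a fibril-binding proteoglycan. *Sparc* was also the highest after thinning, at a mean r of 0.62. It was followed by *Actb* (0.50), *Apoe* (0.48) and *Serpinh1* (0.39), and *Lum* was at rank 6 (0.38).

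The enzymes and chaperones that process collagen were counted as a list of 30 genes, of which 26 had at least 50 UMIs in each pair of days. On Day 7 over Day 3, 8 were at least 2-fold higher and 1 lower, against 8.04% and 6.49% of all genes, with a median log2 ratio of 0.42 against 0.04. The highest ratios were those of *P4ha3*, a prolyl hydroxylase subunit (13 and 56.3 CPM on Day 3 and Day 7), *P3h3* of the prolyl 3-hydroxylase family (27.6 and 97.2 CPM) and *Adamts14*, a procollagen peptidase (16.9 and 46.4 CPM). The lowest were *Pcolce2*, which enhances procollagen cleavage (57.6 and 20.5 CPM), *P4ha1* (116 and 72.5 CPM) and *Plod2*, a lysyl hydroxylase (25.4 and 17.6 CPM).

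On Day 14 over Day 7, 0 of the 26 were at least 2-fold higher and 21 were lower, against 10.9% and 7.34% of all genes, with a median of -1.37, against -1.21 for the collagens and 0.13 for all genes. The lowest were *Loxl3*, a lysyl oxidase that cross-links collagen (58.3 and 11.5 CPM on Day 7 and Day 14), *P4ha3* (56.3 and 12.4 CPM) and *P3h1* (138 and 31.0 CPM), and the highest *P3h2* (10.8 and 18.4 CPM), *Pcolce2* and *P4ha1*. On Day 14 over Day 3, 0 were at least 2-fold higher and 10 lower, against 14.4% and 6.83% of all genes, with a median of -0.73 against 0.18. *Loxl3*, *Plod2* and *P4ha2* had the lowest ratios (-2.45, -2.29 and -1.33) and *Adamts14*, *P3h2* and *Ppib* the highest (0.85, 0.39 and -0.04).

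Of 14 collagen receptor and uptake genes, 11 were counted in each pair. From Day 3 to Day 7, 1 was at least 2-fold higher (*Itga11*) and 1 lower (*Mrc1*), shares near the 8.04% and 6.49% of all genes. From Day 3 to Day 14, 2 were higher and 2 lower, against 14.4% and 6.83%, and from Day 7 to Day 14, 2 were higher and 3 lower, against 10.9% and 7.34%. *Itga11*, the collagen-binding integrin subunit of fibroblasts, was at 8.46, 61.7 and 25.2 CPM. *Mrc1*, the macrophage mannose receptor, was at 310, 79.0 and 37.1 CPM. The macrophage marker list, which holds *Mrc1* itself, was at 4435, 2820 and 1145 CPM. *Ddr1*, an epithelial collagen receptor kinase, was at 70.5, 84.2 and 169 CPM, and *Mrc2*, the collagen uptake receptor of fibroblasts, at 135, 210 and 90.0 CPM. For Day 7 over Day 3, *Mrc2* and *Ddr2* followed *Itga11* (log2 ratios 0.63 and 0.45), and *Lair1* and *Cd44* stood next to *Mrc1* at the low end (-0.98 and -0.81). For Day 14 over Day 3, *Itga11*, *Ddr1* and *Sdc4* were highest (1.57, 1.26 and 0.93) and *Mrc1*, *Lair1* and *Itga1* lowest (-3.06, -1.22 and -0.79). For Day 14 over Day 7, *Sdc4*, *Ddr1* and *Cd44* were highest (1.5, 1.0 and 0.60) and *Itga11*, *Mrc2* and *Mrc1* lowest (-1.29, -1.22 and -1.09).

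Spots not marked as under tissue held 49.0%, 59.2% and 50.6% of each slide's UMIs on Day 3, Day 7 and Day 14. The marks cover part of the tissue, and the study's supplement describes selected spots as its region of interest. Outside here therefore means outside the marked spots, which can still be tissue. Per UMI, collagens were lower there than under tissue, by log2 ratios of -1.68, -1.25 and -0.65. *Col22a1* went the other way, with 106 UMIs outside and 41 under tissue on Day 14 (log2 ratio 1.34 [0.81, 1.90]) and 21 outside and 1 under tissue on Day 3. *Col2a1* had 11 UMIs outside and 0 under tissue on Day 3 (lower limit of the log2 ratio 1.38). *Col11a2* on Day 14 had 116 UMIs outside and 71 under tissue (0.68 [0.24, 1.12]). On Day 3 *Col11a2* had 10 UMIs outside and 1 under tissue (3.38 [0.57, 8.82]) and *Col11a1* 13 and 3 (2.17 [0.31, 4.62]). Over every spot of the slide the Day 7 over Day 3 log2 ratio of *Col11a2* was -1.20 instead of 1.26, its Day 14 over Day 3 ratio 2.66 instead of 4.77, and those of *Col11a1* 1.85 instead of 3.80 and 3.18 instead of 4.55. The every-spot ratio of *Col11a1* for Day 7 over Day 3 lay outside its counting interval under tissue ([2.22, 6.10]). The other ratios given here stayed inside theirs. For *Col11a2* these were [-1.78, 6.78] on Day 7 over Day 3 and [2.25, 10.1] on Day 14 over Day 3. For *Col11a1* on Day 14 over Day 3 it was [2.98, 6.84]. All rest on 1 or 3 UMIs under tissue on Day 3.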

How the data were processed

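Visium sections of wounded mouse skin from Day 3, Day 7 and Day 14 (1 section per day) were analysed. The deposited files hold raw UMI counts per gene and spot, which the authors made with Space Ranger 1.3.0 on the mm10 genome, per the submitters' processing notes, without normalization. Groups were taken from the labelled day.

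UMIs were summed over spots under tissue and divided by all UMIs (CPM). Levels carry exact Poisson intervals and ratios exact conditional binomial intervals, both at 95%. They reflect counting alone, not differences among animals, and depth (1772259 to 4611723 UMIs) sets their width. Where a section had 0 UMIs, 3 counts gave the upper limit. The 2-fold counts used genes with at least 50 UMIs over both sections. Spot sets were the highest 10% of spots with at least 500 UMIs by share of a 10-gene marker list. Correlations used log1p of UMIs per 10000 over all spots under tissue for genes with at least 200 UMIs, and again after thinning to 1000 UMIs (seed 1), which left 426, 525 and 679 spots. Marker lists for upper epidermis, fat and Schwann cells were at 7223, 3576 and 9709 CPM, at 7224, 7269 and 1935 CPM, and at 480, 346 and 570 CPM by day. No doublet caller was run and no cell-type makeup was estimated.

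The genes named are all collagens (those with at least 50 UMIs over the 3 sections with values), the 3 highest and 3 lowest ratios of the processing and receptor lists per pair of days, and the 5 genes most correlated with the summed fibrillar chains. The collagens, classes and lists were chosen with earlier results of these data known. Gene positions come from GENCODE M21 by gene identifier (44 of 44 matched), and start regions from RefSeq. Alternatives were the mean of spot CPM, TMM factors (edgeR 4.0.16), size factors (DESeq2 1.42.0), other denominators, spots, gene minimums and set sizes. The intervals were tested on simulated Poisson counts with 200 changed genes. For Day 7 over Day 3, with 10541 genes, 95.9% of intervals of unchanged genes and 94.0% of those of changed genes covered the simulated ratio. Such counts follow the model that the intervals assume, with no spread between animals. The simulation therefore checks the calculation only. Python 3.11.15 with numpy 2.4.6, scipy 1.17.1, pandas 2.3.3 and matplotlib 3.10.9 and R 4.3.3 were used.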

Additional observations from a re-analysis of the deposited data

Results flagged for a closer look

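Each summed class was looked at in the spots highest in the dermal fibroblast, wound fibroblast, basal epidermis, endothelial and muscle lists. The other marker lists, that of pericytes among them, were not searched. In 5 cases a class was above the rest of the section on some day and below it on another in the spots highest in a marker list, with 95% counting intervals on opposite sides of 0. The difference between days was not tested, since each day had 1 section. For the fibrillar class in the wound fibroblast spots the log2 ratios were -0.37, 0.53 and 1.17 in the order Day 3, Day 7, Day 14. Of these spots 4, 18 and 37 were also among those highest in the dermal fibroblast list. For the fibrillar class in the endothelial spots the log2 ratio was -0.47, -0.013 and 0.089, and in the basal epidermis spots 0.038, -0.43 and -0.46. For the network class in the dermal fibroblast spots it was 0.45, -0.17 and 0.34. For the anchoring fibril gene *Col7a1* in the dermal fibroblast spots it was -0.36, -0.34 and 0.97, where the Day 3 value rests on 80 UMIs in the whole section and its interval includes 0.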

How the results depend on the processing

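No paired analysis was possible because each day has 1 section, so no replicate could be left out and the spread between animals is unknown. The precision rests on UMIs, and is lowest on Day 3. Of 744 log2 ratios of single genes over 8 settings, 549 stayed inside the counting interval, 179 moved outside it and 16, each with an interval that excludes 0, changed sign. Changes of sign where the interval includes 0 were not counted among the 16. Sign changes of classes are named below beside them. The cause was not tested for any. From Day 3 to Day 7, the fibrillar ratio (0.48) was 0.81 with averaged spot CPM, 0.46 with DESeq2 size factors, 0.52 without collagens in the total, 0.015 per fibroblast-list UMI, 0.46 over every spot and 0.37 without the 25% of spots richest in muscle markers. The network ratio (0.84) was 1.09 with averaged spot CPM, 0.38 per fibroblast-list UMI and 0.95 over every spot, the FACIT ratio (2.28) 1.82 per fibroblast-list UMI and 2.01 over every spot, and the transmembrane ratio (-0.36) 0.27 with averaged spot CPM and -0.82 per fibroblast-list UMI. From Day 7 to Day 14, the fibrillar ratio (-0.94) was -0.75 with averaged spot CPM, -1.04 with TMM, -1.06 with DESeq2, -1.005 without collagens in the total, -0.094 per fibroblast-list UMI, -0.61 over every spot and -0.90 without the muscle-rich spots. The network ratio (-1.18) was -1.28 with TMM, -1.30 with DESeq2 and -0.33 per fibroblast-list UMI. The FACIT ratio (-1.41) was -1.28 with averaged spot CPM, -1.51 with TMM, -1.53 with DESeq2, -1.48 without collagens in the total, -0.56 per fibroblast-list UMI and -1.07 over every spot. The transmembrane ratio (1.21) was 1.03 with averaged spot CPM, 1.10 with DESeq2, 2.07 per fibroblast-list UMI and 1.09 over every spot. Other sign changes with averaged spot CPM were those from Day 3 to Day 14 of the fibrillar class (0.063), the multiplexins (0.013), *Col1a1* (0.11), *Col3a1* (0.17) and *Col15a1* (0.17), and from Day 3 to Day 7 of *Col17a1* (0.21). Per fibroblast-list UMI they were from Day 3 to Day 14 the network class (0.052), *Col1a1* (0.013), *Col4a2* (0.11), *Col6a2* (0.20) and *Col15a1* (0.010), from Day 3 to Day 7 *Col1a1* (-0.031) and *Col1a2* (-0.43), and from Day 7 to Day 14 *Col1a1* (0.044), *Col1a2* (0.20), *Col14a1* (0.016), *Col6a6* (0.35) and *Col15a1* (0.27). Without the muscle-rich spots *Col1a2* went to -0.066 from Day 3 to Day 7. Averaged spot CPM raised the median of all genes by 0.23 from Day 3 to Day 7 and by 0.18 from Day 3 to Day 14, and DESeq2 size factors shifted it by -0.13 from Day 3 to Day 14 and by -0.12 from Day 7 to Day 14. Collagens at least 2-fold higher on Day 7 than on Day 3 were 28 of 43 with a minimum of 1 UMI (19.6% of all genes) instead of 17 of 27 (8.04%). Those higher on Day 14 than on Day 3 were 8 of 25 with averaged spot CPM (24.3% of all genes), 9 of 30 over every spot (11.7%), 10 of 35 with a minimum of 10 UMIs (17.3%), 16 of 42 with a minimum of 1 (24.4%) and 10 of 25 at 1.5-fold (28.4%), instead of 4 of 25 (14.4%). Those lower were 0, 0, 2, 3 and 4 (8.42%, 6.74%, 9.28%, 14.5% and 14.3% of all genes) instead of 1 (6.83%). Those higher on Day 14 than on Day 7 were 5 of 35 over every spot (9.31%), 5 of 39 with a minimum of 10 UMIs (13.5%), 5 of 43 with a minimum of 1 (18.8%) and 4 of 29 at 1.5-fold (23.4%), instead of 2 of 29 (10.9%). Median correlations after thinning were 0.11, 0.16 and 0.12 by day within a trimer and 0.071, 0.055 and 0.061 between classes. With the highest 20% of spots in place of 10%, the fibrillar ratio in wound fibroblast spots was -0.43 on Day 3 and 0.94 on Day 14, the network ratio in endothelial spots 1.03 on Day 3, and the transmembrane ratio in basal epidermis spots 1.28 on Day 7 and 0.90 on Day 14. Of 105 such ratios 65 stayed inside the counting interval, and 0 of those whose interval excludes 0 changed sign. With all spots under tissue 103 stayed inside the interval.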
